A study of Homo sapiens with 8 samples.

Results

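Readouts of Wnt signalling were followed in HCT-116, a line from a human colorectal carcinoma, through 10 widely used target genes. They were AXIN2, NKD1, DKK1, RNF43 and ZNRF3 (feedback inhibitors), LGR5 (a receptor), and LEF1, TCF7, SP5 and ASCL2 (transcription factors). The 10 genes were taken out of 20441 named genes on the array, with every probe that carries their names, which gave 13 of 50599 probes. AXIN2 was included because its signal rose with NU6102 in these same data, so its levels on the WT and treated arrays are described here and not tested. The other 9 were added as described targets of the same pathway.

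RNA was measured on 8 one-colour arrays of 60-base probes, 2 for each of 4 groups. WT was the parental line with no treatment named. WT+NU6102 was the same line after 24 h in 20 µM NU6102, an inhibitor of CDK1 and CDK2. CDK2 KO was a purchased CDK2-/- derivative of the line, and R50 was a resistant line grown from WT cells in 50 µM NU6102 and maintained in it. Whether R50 is a single clone, and whether WT arrays had a solvent control, is not given in the sources used here. The duplicates are described as biological. In bulk RNA, a lower level in every cell and fewer cells with the transcript cannot be told apart.

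In the canonical Wnt pathway, a cytoplasmic complex built on Axin and APC marks beta-catenin for destruction. Wnt ligands bound to Frizzled and LRP receptors stop this, and beta-catenin then enters the nucleus, binds TCF and LEF proteins and switches on target genes. Several targets are themselves inhibitors of the pathway and so form negative feedback. In the intestinal crypt the pathway maintains stem cells, and in HCT-116 cells it is active because the line carries an activating mutation in CTNNB1, the beta-catenin gene.

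The arrays were alike in depth. Between 32376 and 36206 of 58717 non-control spots per array were well above background, none was saturated, and duplicates correlated across probes at r = 0.9937 to 0.9958. All values are normalized log2 signals, the log2 of the scanner's background-subtracted signal less the 75th percentile of that array, so that 0 is the 75th percentile and levels of different probes are not comparable. CDK2 itself, the check of the labels, was at -0.76 and -0.76 in WT, -0.44 and -0.42 in WT+NU6102, -1.56 and -1.51 in CDK2 KO and -1.10 and -1.09 in R50. It was lower in CDK2 KO than in WT by a log2 difference of -0.77 (SE 0.04, limma adjusted p = 0.0002677) and stayed above background, and whether its probe lies in the deleted part is not given in the sources used here. All 6 epithelial markers (EPCAM, CDH1, KRT8, KRT18, KRT19 and CLDN4) were well above background on all 8 arrays. Of 7 markers of other cell types, PTPRC and COL1A1 were so on all 8 and HBB and ALB on none. WT and WT+NU6102 shared one slide, and CDK2 KO and R50 another. Slide and group therefore cannot be told apart in CDK2 KO or R50 against WT, whereas the effect of NU6102 on WT and the contrast of the stable lines (R50 against CDK2 KO) are within a slide.

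Upstream sequence was matched for 5 of the 10 genes in RefSeq (GRCh38.p14). The 250 bases before the start were searched on both strands for 4 forms of the motif that TCF and LEF proteins are known to bind, CTTTG followed by AA, by AT, by TA or by TT. The forms cannot overlap one another on the same strand. Across 35116 promoter windows of this length, 12% held at least 1 match, 1.21% at least 2 and 0.122% at least 3. SP5 held 3 matches and DKK1 held 2, and these windows are printed since both genes hold more than 1 match and rose with NU6102. TCF7 held 1 match in 1 of its start windows, and RNF43 and LEF1 held 0. Matches are in capitals, and a match on the minus strand reads as its reverse complement. A match is a description of the letters and not a bound site.
SP5, chr2:170715087-170715336, plus strand: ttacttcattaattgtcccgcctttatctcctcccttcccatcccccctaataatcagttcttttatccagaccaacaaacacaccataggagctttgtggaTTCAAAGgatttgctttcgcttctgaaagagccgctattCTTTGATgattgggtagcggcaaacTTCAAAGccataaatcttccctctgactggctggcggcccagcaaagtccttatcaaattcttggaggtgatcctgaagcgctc
DKK1, chr10:52314031-52314280, plus strand: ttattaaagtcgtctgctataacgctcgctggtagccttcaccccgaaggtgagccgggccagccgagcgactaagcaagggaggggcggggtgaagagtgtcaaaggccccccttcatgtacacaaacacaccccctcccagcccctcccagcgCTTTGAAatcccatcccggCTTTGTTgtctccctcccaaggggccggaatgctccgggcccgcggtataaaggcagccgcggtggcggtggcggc

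For AXIN2, ZNRF3 and TCF7 the array carried 2 probes each, and for each gene at least 1 comparison depends on which is read. The first 30 bases of the probes behind the largest values and behind the disagreements are given as the files list them, in lower case with no part marked, with their hg19 positions.
AXIN2 probe A_23_P148015, chr17:63525389-63525448: ttttgtcttaaaggtcttgagggttgacca
AXIN2 probe A_24_P298027, chr17:63554388-63554447: ttcctggagagggagaaatgcgtggatacc
RNF43 probe A_33_P3213029, chr17:56431063-56431122: gggtatttatatctgaaccagacagacgct
ZNRF3 probe A_24_P162373, chr22:29449612-29449671: ctcaggaggaactcttacctggaaattggg
ZNRF3 probe A_23_P427502, chr22:29452861-29452920: actgctcacatacttatgtgctgctagtct
TCF7 probe A_23_P7582, chr5:133483237-133483296: cccagaaaacctccagtagtggacaacagg
TCF7 probe A_33_P3250671, chr5:133478508-133478567: agccaaggtcattgcagagtgcacacttaa
SP5 probe A_23_P135381, chr2:171574290-171574349: ttttcgctaggaccggtttgggctttgtac

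Of the 10 genes, 7 were measurable. All 8 arrays had their 10 probes well above background, and these were tested, so no member entered through a single group. LGR5, the R-spondin receptor that marks intestinal stem cells, and ASCL2, a transcription factor of the same cells, were well above background on none of the arrays. LGR5 lay between -7.26 and -5.82 and ASCL2 between -7.40 and -6.03. LEF1, a DNA-binding partner of beta-catenin, was well above background on 1 array, CDK2 KO replicate 2, at -3.40. The other CDK2 KO array had LEF1 at -7.38, and the remaining arrays lay between -7.19 and -6.83. No comparison was made for these 3 genes.

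**Figure D1:**
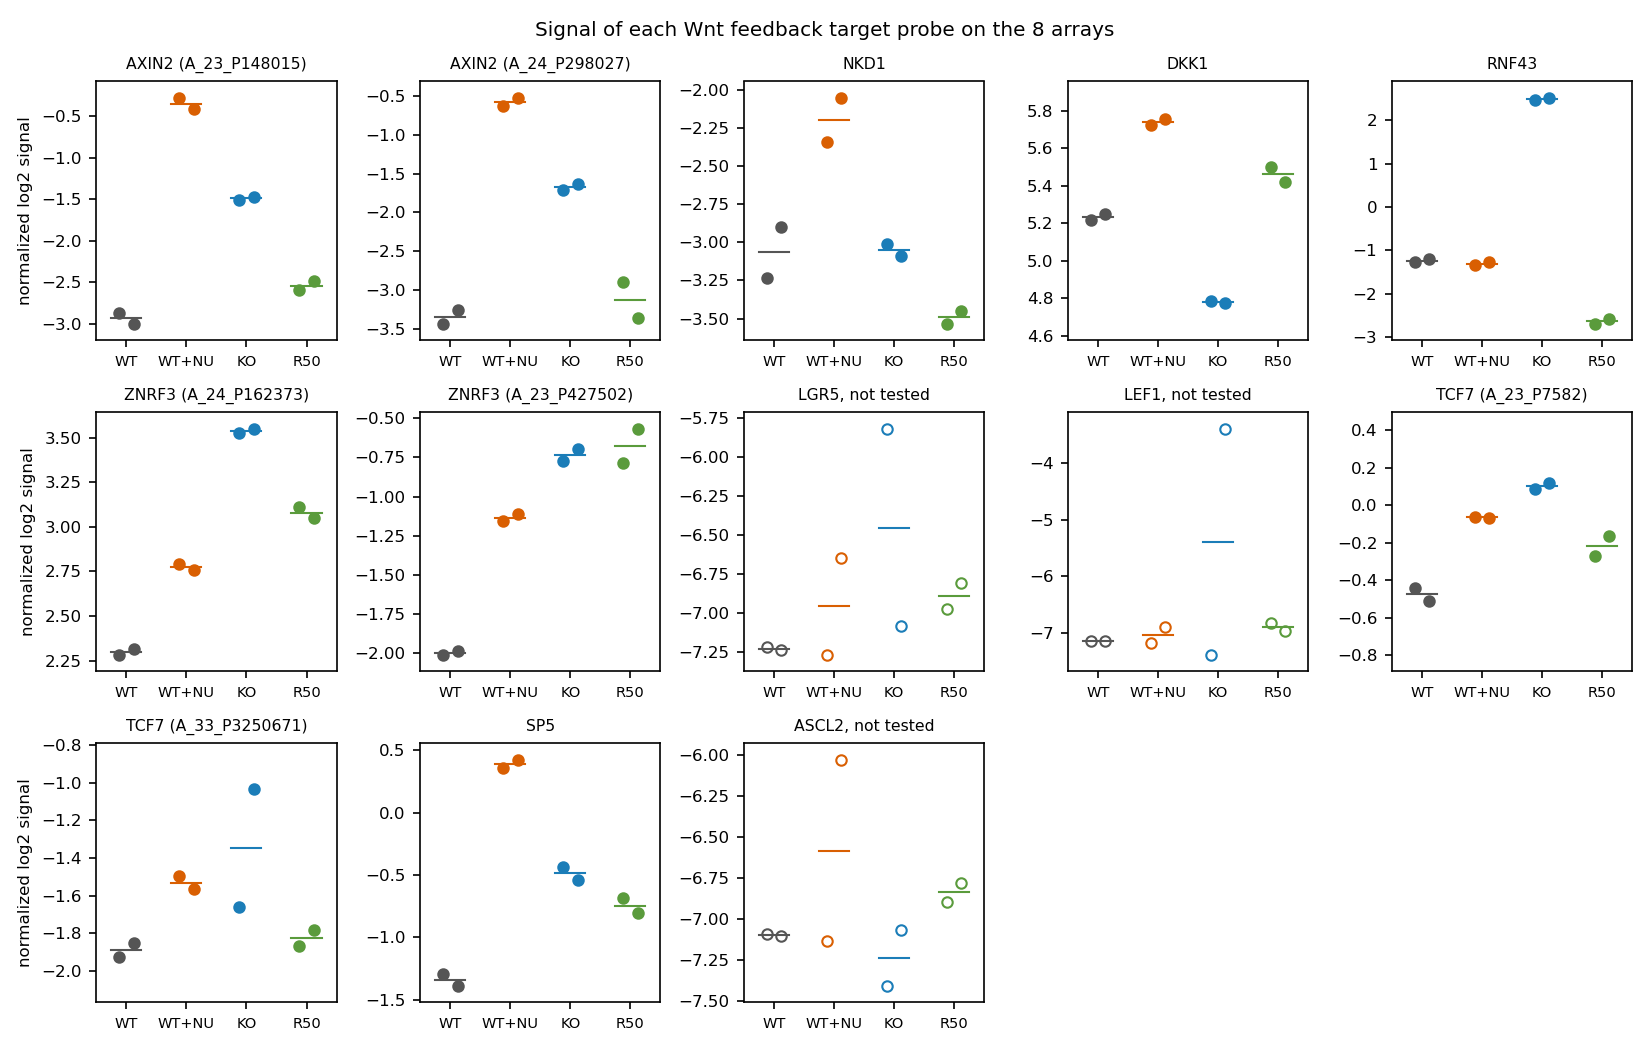
Normalized log2 signal (vertical axis, scaled separately per probe) of all 13 probes in WT, WT+NU6102 (WT+NU), CDK2 KO (KO) and R50; points are the 2 arrays, lines their means, and open points mark groups in which the probe was not well above background on both arrays. AXIN2 and SP5 run in the order WT+NU6102, CDK2 KO, R50, WT from high to low, while RNF43 stands at 2.46 and 2.50 in CDK2 KO and below -1 in every other group.

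AXIN2 encodes a scaffold of the destruction complex and is a direct target of beta-catenin, which makes it the standard gauge of the pathway. Probe A_23_P148015 read -2.86 and -2.99 in WT, -0.29 and -0.42 in WT+NU6102, -1.51 and -1.48 in CDK2 KO and -2.60 and -2.49 in R50. The 4 groups did not overlap, with WT+NU6102 highest, CDK2 KO next, then R50 and WT. The share of all probes without overlap was not counted, so here and below overlap only describes the values. On the log2 scale the means differed from WT by 2.58 (5.97-fold) in WT+NU6102, by 1.44 (2.71-fold) in CDK2 KO and by 0.39 (1.31-fold) in R50, each with an SE of 0.08. With normexp background correction in place of the scanner's processed signal these differences were 1.94, 0.98 and 0.25, in the same order of groups. In WT+NU6102 this rise ranked 6 from the top among 15317 tested genes, which is the value that AXIN2 was chosen for.

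The other AXIN2 probe, A_24_P298027, gave the same order. It read -3.43 and -3.26 in WT, -0.63 and -0.53 in WT+NU6102, -1.72 and -1.63 in CDK2 KO and -2.89 and -3.36 in R50. Here the R50 and WT arrays overlapped, which they did not at A_23_P148015. Its log2 differences from WT were 2.76, 1.67 and 0.22 in the same order of groups (SE 0.16).

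The comparison of R50 with CDK2 KO used no array on which AXIN2 was chosen, and it was tested. AXIN2 was lower in R50 than in CDK2 KO at both probes. The log2 difference was -1.05 (SE 0.08, limma adjusted p = 0.000483, 95% interval -1.24 to -0.86) at A_23_P148015 and -1.45 (SE 0.16, limma adjusted p = 0.00184, 95% interval -1.85 to -1.05) at A_24_P298027. These correspond to 2.07-fold and 2.73-fold. Leaving out each array in turn, the first difference lay between -1.10 and -0.998, and it was -0.73 with normexp background correction (limma adjusted p = 0.000128) and -1.25 as the mean over both probes (limma adjusted p = 0.000215).

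SP5, a zinc-finger transcription factor switched on by beta-catenin, was the member that ran most like AXIN2. It read -1.30 and -1.39 in WT, 0.36 and 0.42 in WT+NU6102, -0.43 and -0.54 in CDK2 KO and -0.69 and -0.80 in R50. No groups overlapped, and the order of the means was that of AXIN2. SP5 rose with NU6102 by 1.73 on the log2 scale (3.32-fold, SE 0.07, limma adjusted p = 0.000117), which ranked 28 from the top among 15317 genes. It was also higher than WT in CDK2 KO, by 0.86 (1.81-fold, limma adjusted p = 0.000811), and in R50, by 0.60 (1.51-fold, limma adjusted p = 0.00487).

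The step between the stable lines was the weakest for SP5. R50 was below CDK2 KO by a log2 difference of -0.26 (SE 0.07, limma adjusted p = 0.0365). This call was lost in all 8 fits that left out 1 array (adjusted p = 0.0516 to 0.157) and when only the 4 arrays of that slide were fitted (limma adjusted p = 0.0930).

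NKD1, an inhibitor that binds Dishevelled, passed the test against WT with NU6102 and not in either stable line. It read -3.23 and -2.90 in WT, -2.34 and -2.06 in WT+NU6102, -3.01 and -3.09 in CDK2 KO and -3.53 and -3.45 in R50. The treated arrays lay above all others and the R50 arrays below all others, while WT and CDK2 KO overlapped. The rise with NU6102 was 0.87 on the log2 scale (1.82-fold, SE 0.14, limma adjusted p = 0.00488). CDK2 KO differed from WT by 0.01 (limma adjusted p = 0.953, 95% interval -0.34 to 0.37), and R50 by -0.43 (limma adjusted p = 0.0874, 95% interval -0.78 to -0.07). Against CDK2 KO, R50 differed by -0.44 (limma adjusted p = 0.0623), and by the same amount with a limma adjusted p = 0.0262 when only that slide was fitted. Treated WT cells were also above CDK2 KO by 0.85 on the log2 scale (limma adjusted p = 0.00406, across slides, a comparison in which 60.5% of all genes were called).

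DKK1, a secreted inhibitor that binds the LRP co-receptors, was the one tested member lower in CDK2 KO than in WT. It read 5.22 and 5.25 in WT, 5.73 and 5.76 in WT+NU6102, 4.79 and 4.77 in CDK2 KO and 5.50 and 5.42 in R50. No groups overlapped, and every neighbouring pair in the order WT+NU6102, R50, WT, CDK2 KO differed, all of them across slides. In R50 against WT+NU6102, 60.2% of all genes were called. DKK1 rose with NU6102 by 0.51 (1.42-fold, SE 0.05, limma adjusted p = 0.000817) and fell by 0.45 in CDK2 KO (1.37-fold, limma adjusted p = 0.00212), both on the log2 scale. R50 was above CDK2 KO by 0.68 (1.60-fold, limma adjusted p = 0.000489). The excess of R50 over WT was 0.23 (limma adjusted p = 0.0276) and lost its call in all 8 fits without 1 array (adjusted p = 0.0505 to 0.118).

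RNF43 and ZNRF3 encode related membrane ubiquitin ligases that clear Frizzled receptors from the cell surface. Both rose in CDK2 KO, and in R50 RNF43 fell while ZNRF3 rose. RNF43 read -1.27 and -1.20 in WT, -1.33 and -1.27 in WT+NU6102, 2.46 and 2.50 in CDK2 KO and -2.68 and -2.59 in R50. Before scaling, these were processed intensities of 298 and 306.5, 295.5 and 296.5, 3613 and 3670.6, and 105.7 and 115.6. The CDK2 KO arrays thus stood far above the rest, and the R50 arrays below, with WT and treated cells side by side.

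RNF43 was 13.1-fold higher in CDK2 KO than in WT (log2 difference 3.71, SE 0.06, limma adjusted p = 1.30e-05), which ranked 35 from the top among 15317 genes. R50 was 2.64-fold below WT (log2 difference -1.40, limma adjusted p = 0.000296). On the slide that held both lines, R50 was 34.6-fold below CDK2 KO (log2 difference -5.11, SE 0.06, limma adjusted p = 4.28e-06), and only 10 tested genes had a larger drop. With normexp background correction this log2 difference was -4.42 (limma adjusted p = 6.885e-08) and that of R50 from WT was -0.97 (limma adjusted p = 4.249e-05). With NU6102 the difference from WT was -0.07 (limma adjusted p = 0.375, 95% interval -0.22 to 0.07). CDK2 KO also exceeded treated WT cells, by 3.78 on the log2 scale (limma adjusted p = 8.98e-06, across slides). One probe stands behind all of these values.

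ZNRF3 was above WT in all 3 other groups at both of its probes. Probe A_24_P162373 read 2.28 and 2.31 in WT, 2.79 and 2.76 in WT+NU6102, 3.52 and 3.55 in CDK2 KO and 3.11 and 3.05 in R50. No groups overlapped. Its log2 differences from WT were 0.48 in WT+NU6102 (1.39-fold, limma adjusted p = 0.000887), 1.24 in CDK2 KO (2.35-fold, limma adjusted p = 8.58e-05) and 0.78 in R50 (1.72-fold, limma adjusted p = 0.000671).

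The dimmer ZNRF3 probe, A_23_P427502, read -2.01 and -1.99 in WT, -1.16 and -1.11 in WT+NU6102, -0.77 and -0.70 in CDK2 KO and -0.78 and -0.57 in R50. WT was lowest here too, but the CDK2 KO and R50 arrays overlapped. Its differences from WT were 0.86, 1.26 and 1.32 (limma adjusted p = 0.000718, 0.000372 and 0.000667). The probes disagreed on R50 against CDK2 KO, with a log2 difference of -0.46 (limma adjusted p = 0.00158) at A_24_P162373 and 0.06 (limma adjusted p = 0.623, 95% interval -0.14 to 0.26) at A_23_P427502.

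TCF7, a DNA-binding partner of beta-catenin that is itself a target, differed by under 1.5-fold from WT in each group. Probe A_23_P7582, averaged over 10 spots, read -0.44 and -0.51 in WT, -0.06 and -0.07 in WT+NU6102, 0.09 and 0.12 in CDK2 KO and -0.27 and -0.17 in R50. WT was lowest and CDK2 KO highest without overlap, but WT+NU6102 was not separated from CDK2 KO (limma adjusted p = 0.0504) or from R50 (limma adjusted p = 0.0684). Log2 differences from WT were 0.41 in WT+NU6102 (limma adjusted p = 0.00255), 0.58 in CDK2 KO (limma adjusted p = 0.00144) and 0.26 in R50 (limma adjusted p = 0.0282), the last of which was lost in 7 of 8 fits without 1 array (adjusted p = 0.0491 to 0.121 over the 8). R50 was below CDK2 KO by -0.32 (limma adjusted p = 0.00891), and this was lost in 1 of the 8, at an adjusted p = 0.0516. The single-spot probe A_33_P3250671 gave differences from WT of 0.36, 0.55 and 0.06 with a larger SE of 0.20, and none passed (limma adjusted p = 0.196, 0.0906 and 0.849). Its CDK2 KO arrays read -1.66 and -1.03.

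**Figure D2:**
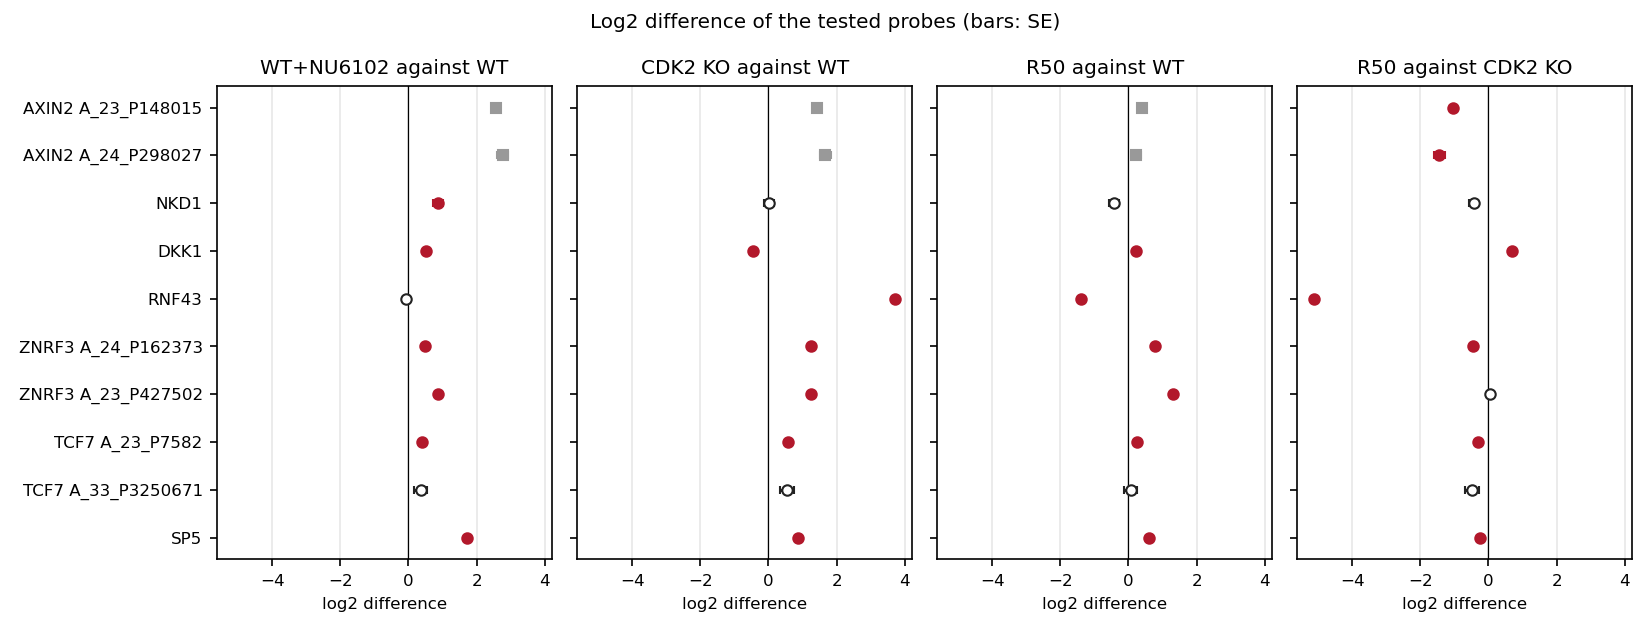
Log2 differences (horizontal axis) with SE for the 10 tested probes in 4 comparisons; filled red circles passed limma at an adjusted p under 0.05, open circles did not, and grey squares are AXIN2 values given without a test. RNF43 spans from -5.11 in R50 against CDK2 KO to 3.71 in CDK2 KO against WT, whereas SP5 lies to the right of 0 in each comparison with WT.

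Counted by the brightest probe of each gene, NU6102 raised 5 of the 6 tested members other than AXIN2 (SP5, NKD1, DKK1, ZNRF3 and TCF7) and lowered none. Among all 15317 genes 53.2% were called in this comparison, 29.1% as higher and 24.1% as lower. The median log2 difference of the 6 was 0.49, against 0.04 over all genes. With a difference of at least 1 required, SP5 alone remained, against 6.69% of all genes.

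In CDK2 KO against WT 5 of the same 6 genes were called, against 36.1% of all genes (19.6% higher and 16.5% lower). Higher were 4 (RNF43, ZNRF3, SP5 and TCF7), DKK1 was lower, and the median was 0.72 against 0.02 over all genes. RNF43 and ZNRF3 passed a difference of at least 1, as did 5.03% of all genes.

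In R50 against WT 5 of the 6 were called as well, against 27.8% of all genes (12.2% higher and 15.6% lower), with ZNRF3, SP5, TCF7 and DKK1 higher and RNF43 lower. Their median was 0.24, against -0.04 over all genes. Only 3 of these calls (ZNRF3, SP5 and RNF43) held in every fit that left out 1 array, and RNF43 alone passed a difference of at least 1 (-0.97 with normexp), against 2.74% of all genes.

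In R50 against CDK2 KO 6 of the 7 tested members were called, against 41.2% of all genes (16.9% higher and 24.3% lower). Lower in R50 were 5 (RNF43, AXIN2, ZNRF3, TCF7 and SP5), DKK1 was higher, and the median was -0.44 against -0.07 over all genes. AXIN2 and RNF43 passed a difference of at least 1, as did 5.43% of all genes. The count of 6 became 5 with normexp, with the authors' processed values and with no filter on dim probes. It became 7 with a stricter filter or the replicate block. The count also fell in each fit that left out a WT+NU6102, CDK2 KO or R50 array, and did not change without either WT array. For ZNRF3 the call was at A_24_P162373 and not at its dimmer probe. The comparisons with WT share the WT arrays, so their counts are not independent of one another.

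Across the 4 groups together, 5 of the 8 tested probes of the members other than AXIN2 differed by limma's moderated F-test at an adjusted p under 0.001, against 21.2% of 28677 probes. They belonged to RNF43, ZNRF3 (both probes), SP5 and DKK1. The count was 5 without either R50 array, 1 without WT replicate 2, 2 without any other single array, and 1 with no filter on dim probes.

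The genes whose profile was most like that of AXIN2 probe A_23_P148015 over the 8 arrays were sought among 2246 genes well above background throughout and with group means at least 1 apart. These correlations are descriptions, since the arrays fall into groups and share the contrast that chose AXIN2. DLX2, a homeobox transcription factor, came first at r = 0.992 (Spearman rho 0.952), with group means of -1.75 in WT, -0.21 in WT+NU6102, -0.91 in CDK2 KO and -1.43 in R50. TDG, a DNA glycosylase, and RRM2, a subunit of ribonucleotide reductase, each reached r = 0.983. PVRL1, a cell adhesion molecule now called NECTIN1, followed at 0.976, and SCML2, a Polycomb-group protein, at 0.972. SP5 ranked 11 with r = 0.964 (rho 0.929). NKD1 ranked 211 with r = 0.81, ZNRF3 638 with 0.311 and RNF43 648 with 0.281, while TCF7 (0.722) and DKK1 (0.305) had too small a range to be ranked. Of the tested members, SP5 alone had the same order of group means as AXIN2.

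**Figure D3:**
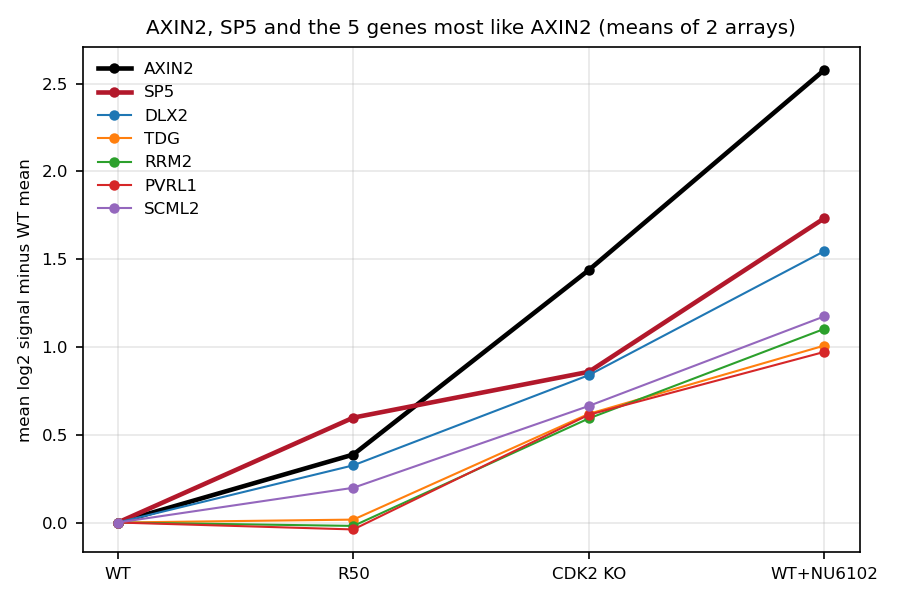
Mean normalized log2 signal of 2 arrays less the WT mean (vertical axis) for AXIN2, SP5 and the 5 genes most like AXIN2, with the groups ordered by AXIN2 level. All 7 are highest in WT+NU6102, where AXIN2 is 2.58 and SP5 1.73 above WT, and SP5 is the highest of them in R50.

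The rest of the pathway was read through 132 other gene names grouped by role, of which 129 were on the array and 101 were tested. The names include synonyms of the same gene, KIAA1199 with CEMIP and FAM123B with AMER1. With NU6102, 52 were called (51.5%, against 53.2% of all genes), 17 higher and 35 lower, and the median was -0.10. Receptors had 8 of 15 called (53.3%, close to the share of all genes) and all 8 were lower, against 24.1% of all genes. Among nuclear factors 9 fell and 2 rose of 18, and among ligands and their secretion factors 5 fell and 2 rose of 17. Described targets outside the 10 had 6 higher and 4 lower of 20, and relay and destruction complex genes 6 higher and 7 lower of 27. Of 4 tested extracellular and membrane inhibitors, 1 rose and 2 fell.

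Genes are named here only where their probe was well above background on every array compared. The largest rises with NU6102 were in BAMBI, a decoy receptor for TGF-beta signals, by 1.08 (limma adjusted p = 0.000145), FRZB, a secreted Wnt antagonist, by 0.91 (limma adjusted p = 0.0489), and GSK3B, the kinase that phosphorylates beta-catenin, by 0.85 (limma adjusted p = 0.000280), all on the log2 scale. The largest falls were in RSPO4, an R-spondin ligand (-1.58), CTNNBIP1, which blocks beta-catenin from binding TCF (-1.33), and FRAT2, which binds GSK3 (-1.29). Each of these falls had a limma adjusted p of 0.000491 or lower. RSPO4 read -4.71 and -4.51 on the treated arrays, near their lowest signals of probes well above background (-4.99 and -4.93).

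In CDK2 KO against WT, 35 of 101 were called (34.7%, against 36.1% of all genes), 24 higher and 11 lower, and 21 without CDK2 KO replicate 1 (15 higher and 6 lower). The 24 higher include WNT11, whose probe passed the filter only through CDK2 KO and R50, and KIAA1199, whose probe passed only through CDK2 KO. Described targets, KIAA1199 among them, had 7 higher and 2 lower of 20. Of those well above background on every array compared, BAMBI (2.01), the ligand BMP4 (1.53) and the Notch ligand JAG1 (1.43) rose most. Each of these rises had a limma adjusted p of 0.000658 or lower. The ligands WNT6 (-1.59, limma adjusted p = 0.000250) and WNT7B (-1.20, limma adjusted p = 0.0268) and the co-repressor TLE2 (-0.92, limma adjusted p = 0.000889) had the largest falls.

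R50 against WT had 33 of 101 called (32.7%, against 27.8% of all genes), 22 higher and 11 lower. The count was 13 without either WT array or R50 replicate 1, 20 without either CDK2 KO array or R50 replicate 2, 23 without either WT+NU6102 array, and 9 with no filter on dim probes. The 22 higher include WNT11, whose probe passed the filter only through CDK2 KO and R50. They also include KIAA1199, whose probe was well above background on no WT or R50 array. Receptors had 7 higher and 1 lower of 15, against 12.2% and 15.6% of all genes, with a median of 0.06. Among them ROR1, a receptor of WNT5A, rose most, by 1.87 (limma adjusted p = 0.000145). FZD7 followed in p (0.33, limma adjusted p = 0.00888), and the other called receptors had a limma adjusted p of 0.019 to 0.0456. Outside the receptor list, FRAT1 (0.76) and the DKK co-receptor KREMEN1 (0.69) had the next largest rises among genes well above background on every array compared. The protease MMP7 (-1.33, limma adjusted p = 0.00108), the beta-catenin cofactor BCL9 (-0.62, limma adjusted p = 0.00266) and NKD2, the relative of NKD1 (-0.34, limma adjusted p = 0.0129), had the largest falls.

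Between the stable lines, 47 of 101 were called (46.5%, against 41.2% of all genes), 22 higher and 25 lower in R50. The count was 30 without either CDK2 KO array (14 higher and 16 lower, or 11 and 19) and with no filter on dim probes. The 25 genes lower in R50 include KIAA1199, whose probe passed the filter only through CDK2 KO. Among genes well above background on every array compared, ROR1 (1.92), WNT6 (1.89) and SOX9 (0.996), a crypt transcription factor, had the largest rises. BAMBI (-2.21), MMP7 (-1.59) and SOX4 (-1.24) had the largest falls. BAMBI thus shared with RNF43 a high level in CDK2 KO (3.70 and 3.73) over R50 (1.53 and 1.47), and it rose with NU6102, where RNF43 did not pass the test.

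The core genes were given whatever their values. CTNNB1 lay between 4.04 and 4.30 on all 8 arrays, and its differences from WT were -0.0045, 0.18 and 0.17 in WT+NU6102, CDK2 KO and R50 (SE 0.06, limma adjusted p = 0.963, 0.0923 and 0.121). APC, AXIN1 and the target MYC did not pass against WT in any group, with differences of -0.20 to 0.09. MYC was 0.20 higher in R50 than in CDK2 KO (limma adjusted p = 0.0168). TCF7L2, the main TCF factor of the intestine, differed from WT by -0.78 with NU6102 (limma adjusted p = 0.00109), by 0.34 in CDK2 KO (limma adjusted p = 0.0306) and by -0.13 in R50 (limma adjusted p = 0.313). So with NU6102 TCF7L2 fell while TCF7 rose, each read by its brightest probe.

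**Figure D4:**
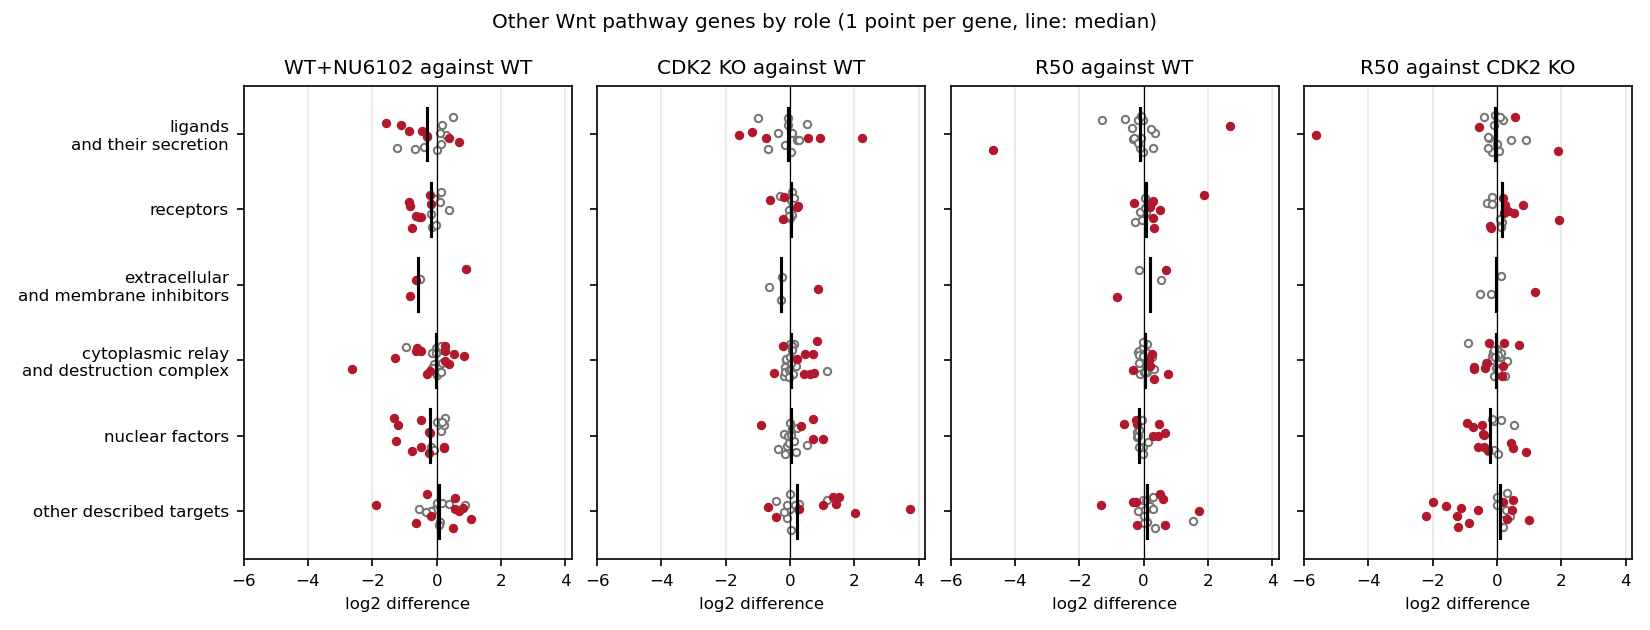
Log2 differences (horizontal axis) of the 101 other tested pathway genes by role in 4 comparisons; each point is a gene, filled where limma's adjusted p was under 0.05, and black lines are medians. With NU6102 8 of 15 receptors were called, all left of 0, against 53.2% of all genes called and 24.1% lower. In R50 against WT 8 of 15 were called, 7 of them right of 0, against 27.8% of all genes called and 12.2% higher.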

How the data were processed

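RNA of 8 HCT-116 samples was labelled with Cy3 and hybridized by the authors to Agilent SurePrint G3 Human GE arrays. The deposited scanner output gives an intensity per spot from Agilent Feature Extraction 11.5.1.1, background-subtracted but unscaled between arrays. The authors used GeneSpring GX to make a second deposited set, log2 values for 28719 probes, which correlate at r = 0.99941 with those used here once each probe is centred.

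R 4.3.3 with data.table read the files. After removal of control and outlier spots, the log2 of the processed intensity was scaled by subtracting each array's 75th percentile, and replicate spots were averaged. Of 50599 probes, 31 lacked a usable spot on some array, and 28677 entered the tests because both arrays of a group had them well above background. A single limma 3.58.1 model of the 4 groups was moderated by empirical Bayes. Calls were made at a two-sided Benjamini-Hochberg adjusted p under 0.05 over all tested probes, and counts used the probe with the highest mean per gene. No minimum difference was set, unless stated. The fit was tested on simulated data.

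The 10 genes, the pathway lists and the tests were chosen with earlier results of these data known. Pathway genes were named by rule, as the 3 largest rises and 3 largest falls per comparison among calls whose probe exceeded background on every array compared, with CTNNB1, APC, AXIN1, TCF7L2 and MYC always given. The genes like AXIN2 were the 5 with the highest Pearson r. Probe positions (hg19) come from the files of WT and WT+NU6102, since those of CDK2 KO and R50 name no build. Alternatives changed the background correction, scaling, filter, prior, replicate block, probe choice and test, and left out each array. Precision is limited by the number of arrays. Figures used Python 3.11.15 and matplotlib 3.10.9.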

Additional observations from a re-analysis of the deposited data

Results flagged for a closer look

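LEF1 was well above background on CDK2 KO replicate 2, at a normalized log2 signal of -3.40, and on no WT array. It drew attention because the gene was in no comparison. The other CDK2 KO array read -7.38, so the signal rests on 1 spot of 1 array, and what lies behind it was not tested.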

How the results depend on the processing

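With 2 arrays per group, small differences depend on the settings. Of 413 single-gene alternatives with a test 373 kept direction and call. Of 49 for AXIN2 against WT, which has no test, 44 moved by less than the spread between duplicates, and 5 kept direction but moved further. These 5 were normexp in all 3 comparisons and the mean over probes in 2 (2.67 with NU6102 and 1.56 in CDK2 KO). Most of the 44 could not have moved further. Leaving out 1 of 2 duplicates always shifts a mean by less than that spread. Changes of filter, prior, block or fitted slide left these values unchanged. Of 174 counts and checks 139 stayed close. Requiring an absolute log2 difference of at least 1 left 1, 2, 1 and 2 members and 9, 10, 5 and 10 pathway genes (WT+NU6102, CDK2 KO and R50 against WT, then R50 against CDK2 KO). Without a filter on dim probes, R50 against WT gave 3 members and 9 pathway genes, R50 against CDK2 KO 30 pathway genes, and the F-test 1 probe. The methods' t-test for R50 against WT called 4 members at an unadjusted p under 0.05 and 0 after Benjamini-Hochberg adjustment. The causes were not tested.

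Leaving out each array in turn gave 3 to 4 members in R50 against WT, 21 to 37 pathway genes in CDK2 KO against WT, 13 to 23 in R50 against WT, 30 to 45 in R50 against CDK2 KO and 1 to 5 probes by the F-test. NKD1 in CDK2 KO against WT, not called at 0.01, turned to -0.027 with quantile normalization, -0.0014 with the authors' values, and lay between -0.15 and 0.18 when 1 array was left out, below 0 without WT replicate 1 or CDK2 KO replicate 1. SP5 in R50 against CDK2 KO was also lost with normexp, without the filter and with the authors' values. The deviations of same-numbered arrays correlated at -0.028 to 0.0452, so the numbers do not pair them. With the replicate block, 5, 5, 5 and 7 members and 52, 34, 25 and 44 pathway genes were called, and probes called in R50 against WT went from 6523 to 5652.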

Other observations

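Wnt ligand genes outside the naming rule, chosen after their values were seen, held the largest differences of the pathway list in R50. WNT16 read -1.76 and -1.62 in WT, -2.84 and -2.78 in WT+NU6102 and -0.70 and -0.81 in CDK2 KO, and it was not well above background on the R50 arrays. It was therefore at least 9.95-fold lower in R50 than in WT and at least 19.0-fold lower than in CDK2 KO. These bounds set the dim group at the lowest signal of probes well above background, or at the probe's own signal where that is higher. No test is given for the bounds here and below. The genes were picked for their values, and limma's p-values belong to the unbounded differences. WNT11 ran the other way. It was not well above background in WT, and it read -2.82 and -2.92 in CDK2 KO and -2.31 and -2.52 in R50. By the same bounds it was at least 3.97-fold higher than WT in CDK2 KO and 5.43-fold higher in R50. Its probe passed the filter only through CDK2 KO and R50.

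FRAT1, a GSK3-binding protein, was not well above background with NU6102 and at least 2.74-fold lower than in WT. KIAA1199, a described Wnt target also called CEMIP, was at least 4.31-fold higher in CDK2 KO than in WT. Its probe was well above background in CDK2 KO alone and passed the filter only through that group. The pathway counts above include KIAA1199 in every comparison except WT+NU6102 against WT, also where an absolute log2 difference of at least 1 was required.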
